A study of Mus musculus with 4 samples.

Results

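Cytosolic nucleic acid sensors are proteins that detect RNA or DNA in the wrong place or form, and their adaptors pass that signal to interferon genes. The 10 genes described here were chosen by symbol, with earlier results of these data known: Ddx58, Ifih1, Dhx58, Mavs, Tmem173, Mb21d1, Zbp1, Eif2ak2, Adar and Trex1. All 10 were found among the 24411 genes listed, under these older symbols (Ddx58 is now Rigi, Tmem173 is Sting1 and Mb21d1 is Cgas). All 10 were also among the 11167 genes that passed a filter on low values (2 or more libraries with a TPM of 1 or higher). TPM (transcript abundance scaled to the same sum in each library) is a level normalised for transcript length, so levels can be set side by side between genes.

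The libraries came from the mouse mammary tumour line 4T1, an established cell line, with 2 control cultures and 2 cultures labelled CD95ko. CD95 is the death receptor encoded by Fas, and the study asks what its disruption changes in these tumour cells. Per the labels' protocols, a 4T1 line stably expressing Cas9 was made with a lentivirus under blasticidin selection, and crRNA and tracrRNA against exon 9 were transfected into it. Each CD95ko line was then grown from a single sorted cell and genotyped by PCR, so both carry Cas9 and each is 1 clone. The protocols name an untransduced source and the Cas9 line as the other RNA sources, and the titles do not say which of them is control 1 or control 2. Disruption of CD95 and growth from a single cell therefore cannot be told apart in the group comparison. Nothing in the labels says that the 2 libraries of a group came from repeated cultures of 1 line, so p-values measure the spread between these libraries only.

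RIG-I (Ddx58) and MDA5 (Ifih1) are helicases that bind viral or otherwise abnormal double-stranded RNA and signal through MAVS on the outer mitochondrial membrane. cGAS (Mb21d1) binds double-stranded DNA and makes the cyclic dinucleotide cGAMP, which activates STING (Tmem173) on the endoplasmic reticulum. Both routes lead through the kinase TBK1 and the factors IRF3 and IRF7 to type I interferon, and several of the sensors are themselves interferon-stimulated genes. ADAR and TREX1 act in the other direction, since they edit or degrade the cell's own nucleic acids that would otherwise be sensed.

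Fas was listed at 49.4 TPM in control 1, 39.2 in control 2, 15.8 in CD95ko 1 and 49.5 in the library labelled CD95ko 2. The last value lies above both controls, and a gene-level TPM does not isolate exon 9, so directions below refer to the libraries as labelled. Control 2 stood apart from the other libraries in its scale: the middle tested gene had a TPM of 16.3 there and between 21.3 and 22.9 in the other libraries. The median tested gene was 0.36 lower in control 2 than in control 1 on the log2(TPM + 1) scale, and differences between the controls are given beside that shift. Epithelial markers were present, with Krt8 between 537 and 1722 TPM and Epcam between 166 and 565 TPM, while Krt5 was listed at 0 in every library. The summed TPM of the 7 epithelial markers was 2794 in control 1, 2873 in control 2, 4954 in CD95ko 1 and 8718 in the library labelled CD95ko 2, and its part in the differences below was not tested. Of 6 leukocyte markers 5 were listed at 0 in all 4 libraries (Ptprc, Cd3e, Cd79a, Adgre1 and Itgam). Csf1r was at 1.22 and 0 TPM in controls 1 and 2, 22.2 in CD95ko 1 and 5.07 in the library labelled CD95ko 2. Its limma adjusted p was 0.164. All 3 endothelial markers were listed at 0, and the sum of the 6 fibroblast markers lay between 0.97 and 4.52 TPM.

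The start regions of the members were examined for the motif through which interferon acts on its target genes. RefSeq promoter sequences (GRCm38.p6, 250 bases before to 50 after each start) were matched for 7 of the 10 members, and Dhx58, Tmem173 and Zbp1 had no entry. The core of the interferon-stimulated response element (ISRE), GAAANNGAAA searched on both strands, occurred in 3.44% of all 32851 promoters of this length. It occurred in 3 of the 10 promoters of the matched members, those of Ddx58, Ifih1 and Eif2ak2. Each match is shown in 30 bases, 5′ to 3′ on the strand of the gene, with the motif in capitals, and Isg15, a classical interferon-stimulated gene, is shown for comparison.
Ddx58, chr4:40239804-40239833, minus strand: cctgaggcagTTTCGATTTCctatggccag
Ifih1, chr2:62646206-62646235, minus strand: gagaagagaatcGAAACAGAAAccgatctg
Eif2ak2, chr17:78882535-78882564, minus strand: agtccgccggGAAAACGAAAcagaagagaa
Isg15, chr4:156200871-156200900, minus strand: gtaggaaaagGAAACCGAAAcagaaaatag

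In the 3 members the motif began 3, 33 and 19 bases after the annotated start, counting the first transcribed base as 1, and in Ddx58 it lay in the reverse orientation. Isg15 held 3 overlapping matches before its start, the one shown beginning at base -72. A second motif, the gamma-activated site TTCNNNGAA, occurred in 8.3% of all promoters and in 2 of the 10 of the matched members, one of Eif2ak2 and one of the 3 listed for Adar. These matches are descriptions of the letters only, and binding was not measured.

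The RNA sensors had their highest level in control 1. Ddx58 (chromosome 4, 40203773 to 40239828, GENCODE M21 on GRCm38), the RIG-I helicase, was listed at 64.1 TPM in control 1, 20.3 in control 2, 27.6 in CD95ko 1 and 15.1 in the library labelled CD95ko 2. Control 1 thus stood alone, 3.16-fold above control 2, and both libraries labelled CD95ko lay near or below control 2. Ifih1 (chromosome 2, 62595798 to 62646255), the MDA5 helicase that prefers long double-stranded RNA, was at 25.9 and 12.1 TPM in controls 1 and 2, at 16.0 in CD95ko 1 and at 11.1 in the library labelled CD95ko 2. Its order over the 4 libraries was the same as that of Ddx58, over a narrower range. In bulk RNA, fewer cells with a transcript and less of it per cell cannot be told apart.

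Dhx58, which encodes LGP2, a relative of RIG-I that lacks the signalling domains and tunes the other helicases, followed another order. It was listed at 25.1 TPM in control 1, 3.31 in control 2, 8.65 in CD95ko 1 and 18.1 in the library labelled CD95ko 2. The spread of 7.60-fold between its highest and lowest library was the widest among the 10 genes, and it separated the controls from each other, not the groups.

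The adaptors had a different profile from the helicases. Mavs, the mitochondrial adaptor of RIG-I and MDA5, was at 29.9 TPM in control 1, 18.6 in control 2, 35.3 in CD95ko 1 and 30.9 in the library labelled CD95ko 2. Its range was the narrowest of the members, 1.90-fold, and the groups did not overlap, although control 1 and the library labelled CD95ko 2 nearly met. Tmem173, the STING adaptor, was at 14.8 TPM in control 1, 10.4 in control 2, 19.7 in CD95ko 1 and 32.4 in the library labelled CD95ko 2. Both libraries labelled CD95ko lay above both controls, and the group means were 26.1 ± 8.98 and 12.6 ± 3.09 TPM (SD, n = 2 each).

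Mb21d1 (chromosome 9, 78430526 to 78443237), the DNA sensor cGAS that acts just before STING, went the other way. It was listed at 15.9 TPM in control 1, 11.7 in control 2, 4.15 in CD95ko 1 and 2.4 in the library labelled CD95ko 2. This was the only member with both libraries labelled CD95ko below both controls in the deposited TPM, at a mean of 3.28 ± 1.24 against 13.8 ± 2.94 TPM (SD, n = 2 each). Of the members it was also the one whose controls were closest to each other, 1.36-fold apart.

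Zbp1, a sensor of left-handed (Z-form) nucleic acid that can start necroptosis, was at 23.8 TPM in control 1, 9.88 in control 2, 10.6 in CD95ko 1 and 61.4 in the library labelled CD95ko 2. The last library alone was high, 5.81-fold above CD95ko 1, which lay beside control 2. Zbp1 ranked 8th, 9th and 8th of the 10 members by TPM in the controls and CD95ko 1, and 1st in the library labelled CD95ko 2. Eif2ak2 (chromosome 17, 78852564 to 78882573), the kinase PKR that halts translation when it binds double-stranded RNA, was at 71.3 and 21.2 TPM in controls 1 and 2, at 35.7 in CD95ko 1 and at 33.2 in the library labelled CD95ko 2. The libraries labelled CD95ko agreed closely (34.4 ± 1.78 TPM, SD, n = 2) and lay between the controls, which were 3.37-fold apart.

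The enzymes that keep self nucleic acid from being sensed, Adar and Trex1, had the same order over the 4 libraries as Ddx58 and Ifih1. Adar (chromosome 3, 89715022 to 89753446), which edits adenosine to inosine in double-stranded RNA, was at 47.4 TPM in control 1, 25.3 in control 2, 29.7 in CD95ko 1 and 13.7 in the library labelled CD95ko 2. Trex1 (chromosome 9, 109057933 to 109059734), the main cytosolic DNA exonuclease, was at 67.5 and 23.3 TPM in controls 1 and 2, at 28.1 in CD95ko 1 and at 13.8 in the library labelled CD95ko 2. For both, control 1 was highest, the library labelled CD95ko 2 lowest, and control 2 and CD95ko 1 close together. Exons of Trex1 overlap those of Atrip on the same strand, and Atrip had the same order (20.2, 9.27, 16.15 and 7.79 TPM in controls 1 and 2 and the libraries labelled CD95ko 1 and 2), so how reads were divided between them is uncertain. Adar is transcribed in a longer, interferon-inducible and a shorter, constitutive form, which a gene-level TPM does not separate. Exons of Dhx58, Mb21d1, Eif2ak2 and Adar also overlap genes on the opposite strand, and whether the strand was used in counting is not given in the sources used here.

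**Figure D1:**
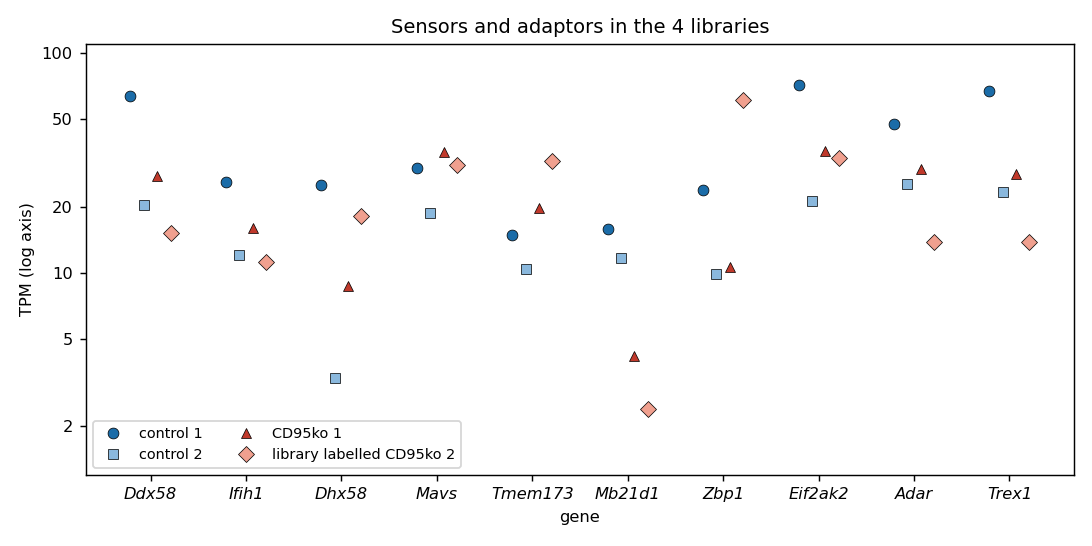
TPM of the 10 members (log axis) in control 1, control 2, CD95ko 1 and the library labelled CD95ko 2, 1 point per library. Control 1 is the highest point for 7 members, and for Mb21d1 both CD95ko points, at 4.15 and 2.4 TPM, lie below both controls.

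By level, the controls' means ran from Eif2ak2 (46.3 ± 35.5 TPM) over Trex1, Ddx58, Adar, Mavs, Ifih1, Zbp1, Dhx58 and Mb21d1 to Tmem173 (12.6 ± 3.09 TPM; SD, n = 2). Each gap between neighbours in this order was smaller than the larger of their SDs. In the libraries labelled CD95ko the order ran from Zbp1 (36.0 ± 35.9 TPM) over Eif2ak2, Mavs, Tmem173, Adar, Ddx58, Trex1, Ifih1 and Dhx58 to Mb21d1 (3.28 ± 1.24 TPM; SD, n = 2). Only the last step, from Dhx58 (13.4 ± 6.67 TPM) to Mb21d1, was wider than the SD of either neighbour.

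The controls were compared first, because the median difference of the members was larger between them than between the groups. All 10 members were lower in control 2 than in control 1, as were 75.9% of all tested genes. The median difference of the members in log2(TPM + 1) was -1.12, against -0.36 over all tested genes, and it ranged from -2.60 for Dhx58 to -0.41 for Mb21d1. More than 2-fold lower in control 2 were 6 of the 10, namely Dhx58, Eif2ak2 (-1.70), Ddx58 (-1.61), Trex1 (-1.50), Zbp1 (-1.19) and Ifih1 (-1.04), where the share of all tested genes was 12.6%. When each library was centred on its median gene, 9 of the 10 were lower in control 2 (44.0% of all tested genes), Mb21d1 turned to 0.02 above control 1, and 4 were more than 2-fold lower, against 4.71% of all tested genes. There is 1 library on each side, so these differences have no replicate check and no test. If the controls are the untransduced and the Cas9 line, transduction and selection cannot be told apart from variation between cultures.

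The members with an ISRE core match (Ddx58, Ifih1 and Eif2ak2) had differences between the controls of -1.61, -1.04 and -1.70 on the log2(TPM + 1) scale. Dhx58 (-2.60), Zbp1 (-1.19) and Tmem173 (-0.47) had no promoter entry and could not be placed. Of the 4 matched members without an exact match, Mavs was at -0.66, Mb21d1 at -0.41 and Adar at -0.88. Trex1, at -1.50, lay among the members with a match. With each library centred on its median gene, Ddx58, Ifih1 and Eif2ak2 were at -1.18, -0.61 and -1.27. Mavs, Mb21d1, Adar and Trex1 were then at -0.22, 0.02, -0.45 and -1.06. A promoter of Adar holds the near match gaaagtgaa, so this split depends on the exact letters searched. Whether the motif has a part in these differences, which rest on 1 library a side, was not tested.

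**Figure D2:**
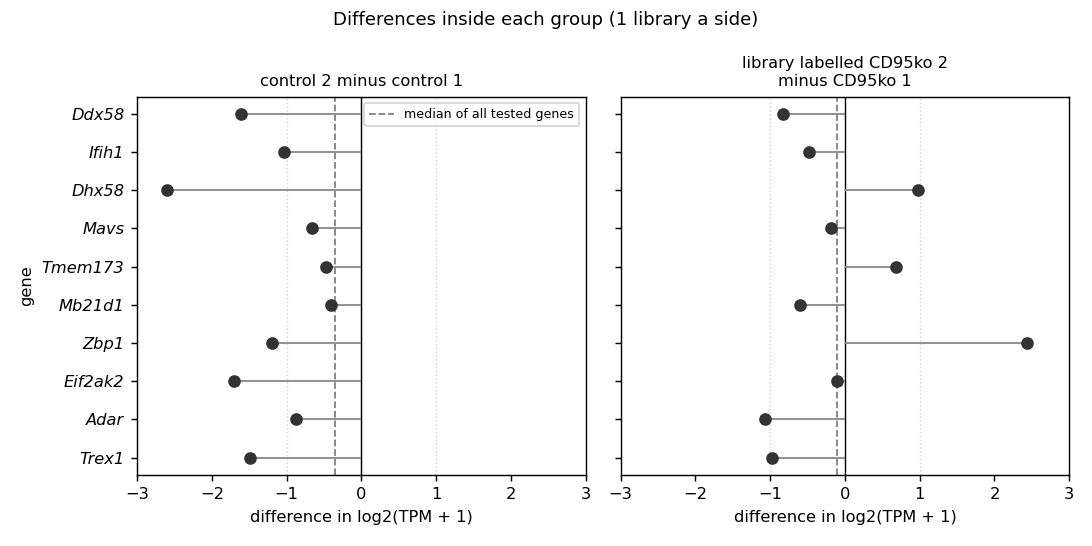
Differences in log2(TPM + 1) between the 2 controls (left) and between the 2 libraries labelled CD95ko (right) for each member, with 0 (solid line), a 2-fold difference (dotted) and the median of all tested genes (dashed). All 10 members lie below 0 on the left. On the right Zbp1 (at 2.43), Dhx58 and Tmem173 lie above 0 and the other 7 below.

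The libraries labelled CD95ko differed from each other in both directions over the members. In the library labelled CD95ko 2 against CD95ko 1, 7 members were lower and 3 higher (Zbp1, Dhx58 and Tmem173), with a median difference of -0.34 against -0.10 over all tested genes. More than 2-fold higher was 1 of the 10, Zbp1 at 2.43, where the share of all tested genes was 9.9%. More than 2-fold lower was 1 of the 10, Adar at -1.06, against 13.4% of all tested genes. Trex1 (-0.97) and Dhx58 (0.98) lay just inside the 2-fold limits, which are set on the log2(TPM + 1) scale, and with each library centred on its median gene, 2 members were more than 2-fold higher (11.2% of all tested genes) and 0 lower (11.6%). These differences too rest on 1 library a side and have no test.

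Between the groups, Mb21d1 had the largest difference, at -1.81 ± 0.56 SE on the log2(TPM + 1) scale (limma, adjusted p = 0.209 over all tested genes). Trex1 followed at -0.97 ± 0.58 (limma adjusted p = 0.463), and Tmem173 was nearly as far in the other direction, at 0.97 ± 0.48 (limma adjusted p = 0.382). None of the 10 members passed an adjusted p of 0.05 in limma, where 0.0537% of all tested genes did (6 of 11167), and their adjusted p-values lay between 0.209 and 0.909. An unadjusted p under 0.05 was reached by 1 of the 10, Mb21d1, against 14.9% of all tested genes. Without CD95ko 1 it was reached by 4 of the 10, Mb21d1, Zbp1, Trex1 and Adar, against 24.3% of all tested genes, and it was reached by 0 without control 1 (8.33%) or without the library labelled CD95ko 2 (12.2%). A p that misses the threshold does not show that levels were alike, since with 2 libraries against 2 the SEs of the members ran from 0.43 for Mavs to 0.82 for Dhx58.

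In the deposited TPM the groups overlapped for 7 of the 10 members. Both libraries labelled CD95ko lay below both controls for 1 member (Mb21d1), as for 18.3% of all tested genes, and above both controls for 2 (Mavs and Tmem173), as for 29.2% of all tested genes. With each library centred on its median gene, 5 members lay below both controls, Ddx58, Ifih1, Adar and Trex1 in addition to Mb21d1, against 28.0% of all tested genes, while Mavs and Tmem173 stayed above both (23.0%). The median difference of the members between the groups was -0.28, against 0.13 over all tested genes. It turned to 0.40 without control 1 and went to -0.99 without control 2.

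**Figure D3:**
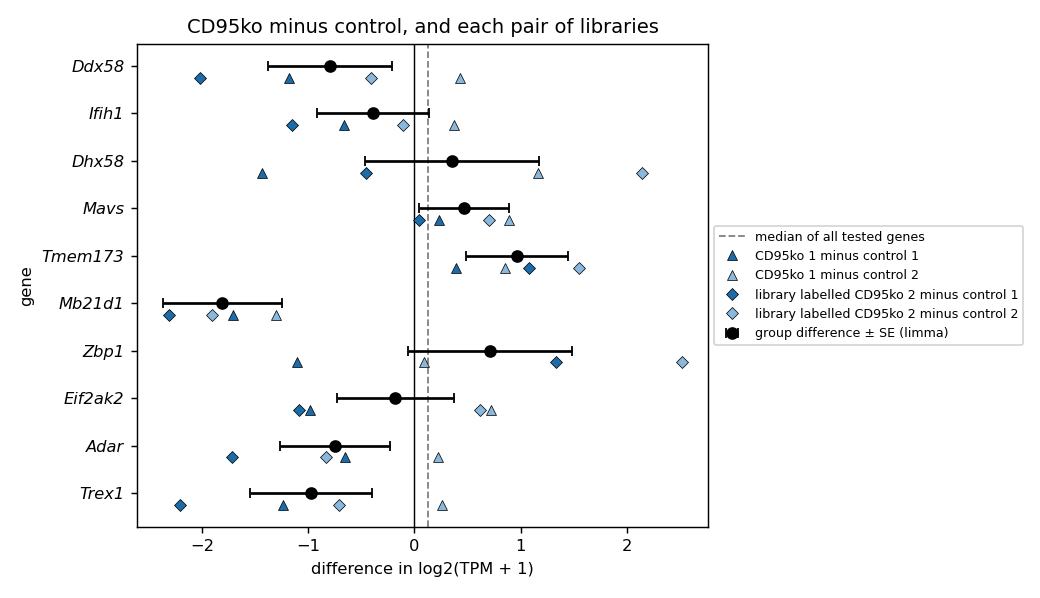
Group difference (CD95ko minus control) in log2(TPM + 1) with its standard error from limma (black points and bars, n = 2 per group), and below it the 4 single differences of each library labelled CD95ko from each control. Mb21d1 is the only member with its 4 single differences below 0, and for Dhx58 and Eif2ak2 the sign depends on which control is used.

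The members' differences depended on the control they were set against, and these comparisons share libraries. Against control 1, CD95ko 1 was lower for 8 members and the library labelled CD95ko 2 for 7, with medians of -1.04 and -1.12, where the medians of all tested genes were 0.0096 and -0.091. Against control 2, CD95ko 1 was lower for 1 member, Mb21d1, and the library labelled CD95ko 2 for 5, with medians of 0.40 and 0.26, where the medians of all tested genes were 0.36 and 0.26. The members' medians thus lay far below those of all tested genes against control 1 and beside them against control 2. The differences of Eif2ak2 were -0.98 and -1.08 against control 1, and 0.72 and 0.62 against control 2.

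Ratios of 2 members within a library do not depend on how libraries are scaled, and 4 pairs were set out after their values had been seen, so they are given without a test. The ratio of Mb21d1 to Tmem173, the sensor to its adaptor, was 1.07 and 1.12 in controls 1 and 2, 0.211 in CD95ko 1 and 0.0741 in the library labelled CD95ko 2. The controls nearly coincided here. Both libraries labelled CD95ko had to be lower, since Mb21d1 lay below and Tmem173 above both controls in each of them. The ratio of Mavs to Ddx58 was 0.467 and 0.917 in the controls, 1.28 in CD95ko 1 and 2.05 in the library labelled CD95ko 2, again without overlap of the groups. Mavs by itself already lay above both controls, and the share of all gene pairs without overlap was not computed. The ratio of Zbp1 to Adar, a sensor of Z-form RNA to the enzyme that limits such RNA, was 0.503 and 0.391 in the controls and 0.356 in CD95ko 1, but 4.47 in the library labelled CD95ko 2. The ratio of Dhx58 to Ddx58 was 0.392, 0.163 and 0.313 in the first 3 libraries and 1.2 in the library labelled CD95ko 2. In the last 2 ratios a single library was set off from the other 3, and the groups as labelled were not separated.

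**Figure D4:**
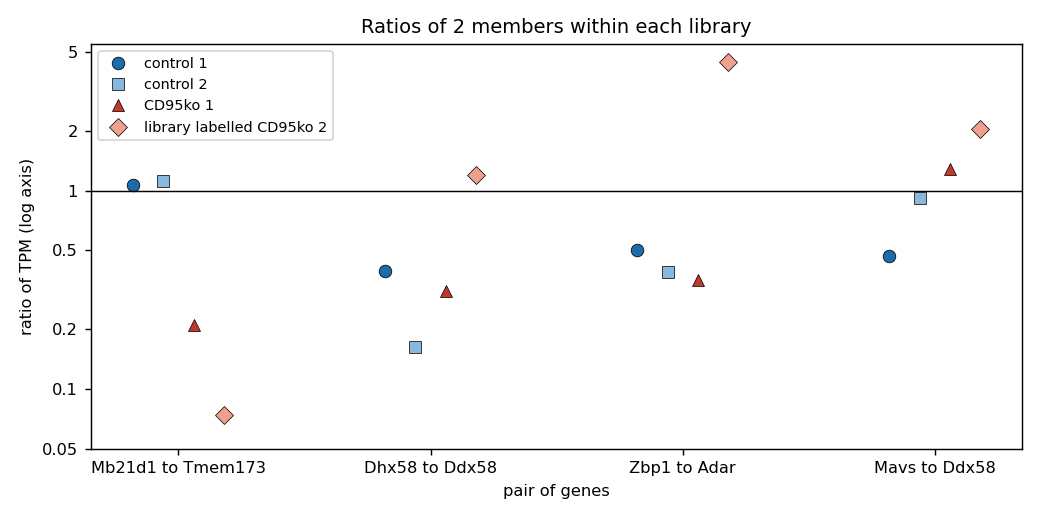
Ratio of the TPM of 2 members within each library (log axis), 1 point per library, with a line at equal levels. The controls share a Mb21d1 to Tmem173 ratio of 1.07 and 1.12 against 0.211 and 0.0741 in the libraries labelled CD95ko, while the Zbp1 to Adar ratio is set apart in 1 library, at 4.47.

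The genes around the sensors were described by 11 lists with 115 entries, of which 92 were tested and 16 were listed at 0 in all 4 libraries. In limma 0 of the 92 passed an adjusted p of 0.05 between the groups, while 5 higher and 11 lower in the libraries labelled CD95ko had an unadjusted p under 0.05. These 16 are 17.4% of the list genes tested, near the 14.9% of all tested genes. The 5 were Pcbp2, Rnf5, Rnaseh2a, Skiv2l and Prkra, and the 11 were Traf2, Tank, Tbkbp1, Banf1, Ppp1r15a, Atf4, Ddit3, Fadd, Isg15, Ifit2 and Ifit3. Robust eBayes, an alternative setting, called 1 of them, Ppp1r15a (1.09%, against 0.466% of all tested genes). Without CD95ko 1, limma called 9 of the 92 (9.78%), where 9.26% of all tested genes were called. Without the library labelled CD95ko 2 it called 2, Tbkbp1 and Ppp1r15a (2.17%, against 1.74%). Both shares are near those of all tested genes. Without control 1 or without control 2 limma called 0 of the list genes and 0 of all tested genes, and an unadjusted p under 0.05 was reached by 8 list genes (8.7%, against 8.33%) and 20 list genes (21.7%, against 4.2%) in that order. These fits assume that the lone library of its group varies like the others.

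The interferon genes themselves were listed at 0 in nearly every library, which in TPM without read counts does not show that they were off. Ifnb1 was listed at 3.67 TPM in control 1 and at 0 in the other libraries, and the other 9 interferon genes of the list were at 0 in all 4. Among the signalling genes, Tbk1 lay between 22.5 and 34.0 TPM and Irf3 between 34.6 and 48.5 TPM, with overlapping groups. Irf7, an interferon-inducible factor, was at 89.0 TPM in control 1, 10.8 in control 2, 25.7 in CD95ko 1 and 36.8 in the library labelled CD95ko 2. Its controls were 8.23-fold apart, further than those of any member. Ikbke, a kinase related to TBK1, was at 13.8 and 11.9 TPM in the controls, 15.3 in CD95ko 1 and 39.2 in the library labelled CD95ko 2. Traf2, an adaptor of TNF receptors and of MAVS, was at 73.1 and 62.1 TPM in the controls against 26.0 and 32.6 in the libraries labelled CD95ko 1 and 2 (limma adjusted p = 0.211).

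Control 2 lay more than 2-fold below control 1 for 17 of the 17 interferon-stimulated genes, with a median difference of -2.28, and for 8 of the 8 OAS genes, with a median of -2.66, where the share of all tested genes was 12.6%. With each library centred on its median gene, 13 of the 17 and 6 of the 8 were more than 2-fold lower, against 4.71% of all tested genes. Several of the OAS proteins are enzymes that double-stranded RNA switches on. Oas1a was at 120.0 TPM in control 1, 16.1 in control 2, 36.9 in CD95ko 1 and 43.6 in the library labelled CD95ko 2. Oasl2 ranged from 16.3 to 96.7 TPM and Oasl1 from 28.7 to 72.0 TPM, with control 1 highest for both. Between the groups the OAS list had a median difference of -0.15 and the interferon-stimulated list of -0.80. Isg15 was at 600.5, 212, 156 and 62.3 TPM in controls 1 and 2 and the libraries labelled CD95ko 1 and 2 (limma adjusted p = 0.197), and Bst2, at 415, 156, 237 and 266 TPM, overlapped between the groups, as did Ifi35 (58.8 to 135 TPM). The median difference between the controls was thus -1.12 for the 10 sensors and adaptors, between those of these 2 lists and the -0.36 of all tested genes.

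Among the other sensors, Tlr3, the endosomal receptor for double-stranded RNA, was at 18.5 and 5.67 TPM in the controls, 15.1 in CD95ko 1 and 23.4 in the library labelled CD95ko 2. The AIM2-like genes Ifi203 and Ifi204 lay between 45.0 and 105 and between 46.5 and 114 TPM, and Mndal between 37.0 and 75.4 TPM. For Ifi204 both libraries labelled CD95ko lay below both controls, as for 18.3% of all tested genes. Aim2 was above 0 in control 2 only, at 0.52 TPM, and Tlr7, Tlr8, Tlr9 and Pycard, the inflammasome adaptor, were listed at 0 in all 4. Of the ZBP1 partners, Ripk3, the kinase through which ZBP1 starts necroptosis, was listed at 0 in every library, also where Zbp1 was at 61.4 TPM. Mlkl, which carries out necroptosis, lay between 46.5 and 79.9 TPM, with both libraries labelled CD95ko below both controls (limma adjusted p = 0.58). Casp8 lay between 30.6 and 54.5 TPM, with overlapping groups. Fadd, the adaptor of CASP8, was at 21.3 and 12.8 TPM in the controls against 5.53 and 4.62 in the libraries labelled CD95ko 1 and 2 (limma adjusted p = 0.24).

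Of the regulators of cGAS and STING, 12 were tested. Banf1, a chromatin protein that keeps cGAS from nuclear DNA, was at 590 and 603 TPM in the controls, 375 in CD95ko 1 and 107 in the library labelled CD95ko 2 (limma adjusted p = 0.223). Rnf5, a ubiquitin ligase that marks STING for degradation, was at 34.7 and 19.7 TPM in the controls against 74.4 and 112 in the libraries labelled CD95ko 1 and 2 (limma adjusted p = 0.145). G3bp1, which aids the binding of DNA by cGAS, lay between 159 and 239 TPM with overlapping groups. Surf4, a cargo receptor that returns STING to the endoplasmic reticulum, was at 173 and 148 TPM in the controls against 127 and 131 in the libraries labelled CD95ko 1 and 2. Its limma adjusted p was 0.663. Nucleic acid clearing enzymes other than Trex1 had overlapping groups for the most abundant members, with Rnaset2b between 269 and 390.1 TPM, Samhd1 between 35.7 and 60.3 TPM and Rnaseh2c between 80.2 and 108 TPM.

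The list for PKR and the eIF2α pathway held the list gene with the largest difference between the groups and the smallest p-value. This list also holds the kinase genes Eif2ak1, Eif2ak3 and Eif2ak4, and the activity of PKR was not measured. Ppp1r15a, which encodes GADD34, the phosphatase subunit that reverses eIF2α phosphorylation, was at 216 and 260 TPM in the controls against 48.3 and 24.5 in the libraries labelled CD95ko 1 and 2. Its difference was -2.75 ± 0.39 SE (limma adjusted p = 0.0594). Ddit3, a stress-induced transcription factor, was at 438 and 413 TPM against 206 and 150 (limma adjusted p = 0.144), and Atf4, the factor whose translation eIF2α phosphorylation favours, at 1014 and 896 against 673 and 401 TPM (limma adjusted p = 0.266). Their control values were close to each other, unlike those of Eif2ak2. Prkra, which encodes the PKR activator PACT, was at 16.2 and 12.4 TPM in the controls against 43.9 and 49.3 (limma adjusted p = 0.15). Of the 11 genes in this list, 5 lay below both controls in both libraries labelled CD95ko (18.3% of all tested genes did) and 2 above them (29.2%).

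Regulators of RIG-I and MAVS had overlapping groups for Ppp1ca, a phosphatase subunit that acts on RIG-I and MDA5, at 464 to 647 TPM. Pcbp2, which promotes the degradation of MAVS, was at 211 and 144 TPM in the controls, 261 in CD95ko 1 and 402 in the library labelled CD95ko 2 (limma adjusted p = 0.277). Ywhae, the 14-3-3 protein that escorts RIG-I, was at 747 and 507 TPM in the controls against 802 and 803. Its limma adjusted p was 0.578. The other RNA deaminases were low, with Adat2 between 2.41 and 18.3 TPM, Adarb1 between 3.49 and 10.8 TPM, Adat1 between 4.14 and 10.0 TPM and Adarb2 at 0 throughout.

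**Figure D5:**
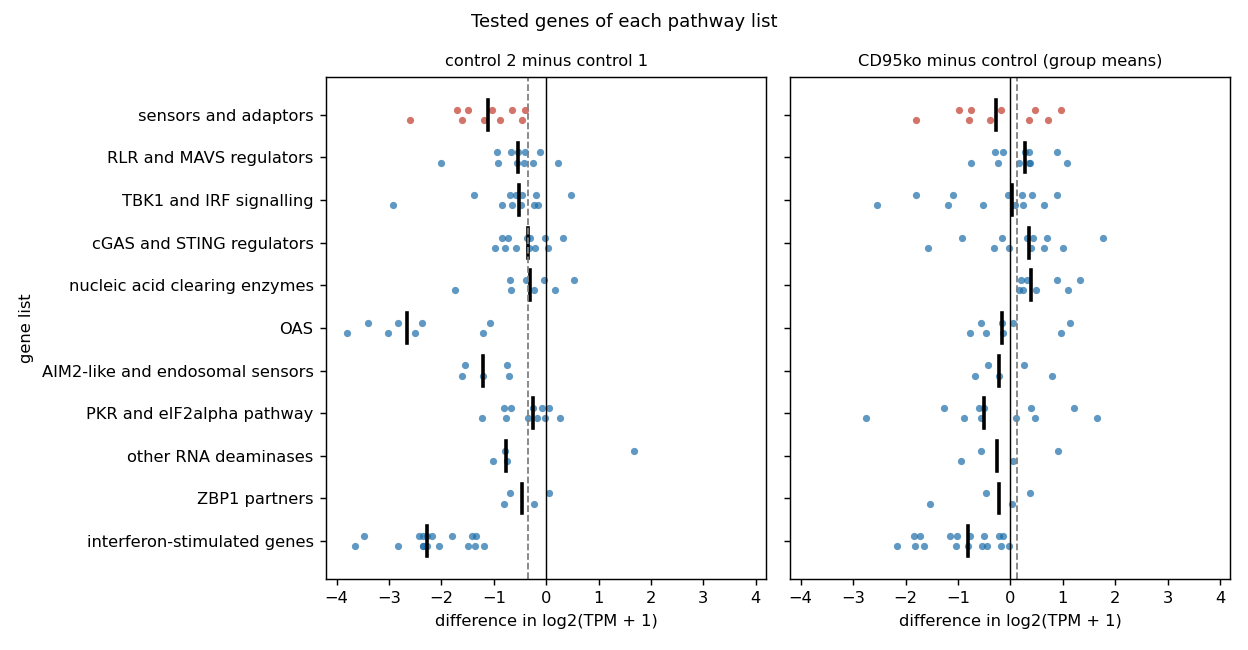
Differences in log2(TPM + 1) of the tested genes in each list (points) with the list's median (bar), for control 2 minus control 1 (left) and for the group means, CD95ko minus control (right); the dashed line is the median of all tested genes. On the left the interferon-stimulated and OAS lists have the lowest medians, at -2.28 and -2.66, followed by the AIM2-like list at -1.20 and the sensors and adaptors at -1.12.

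The genes most like the median pattern of the 10 members were found by the root mean square distance between their differences from control 1 in the other 3 libraries, among 9323 tested genes with a mean TPM of at least 5. The 5 nearest were Ttc39c (distance 0.101 on the log2 scale), Nfu1 (0.108), Pyroxd1 (0.112), A230050P20Rik (0.112) and Parl (0.12). Ttc39c, for example, was at 50.9 TPM in control 1, 25.7 in control 2, 22.9 in CD95ko 1 and 22.5 in the library labelled CD95ko 2. None of the 5 was on the 11 lists, and likeness over 4 libraries is a description only.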

How the data were processed

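Poly(A)-selected RNA of 4 cultures of 4T1 cells was sequenced after SMART-seq2-like amplification, per the labels' protocols. The authors deposited a TPM value for each gene and library; STAR 2.6.0, RSEM 1.3.0 and the build mm10 are named in the submitters' processing notes, and the annotation is not given in the sources used here. TPM keeps no read number, so depth is unknown and no counting interval or detection floor can be given. RSEM divides reads between overlapping or similar genes by estimation.

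Genes with 2 or more libraries at a TPM of 1 or higher were tested on log2(TPM + 1) with limma 3.58.1 in R 4.3.3 (lmFit, eBayes with trend), two-sided, with Benjamini-Hochberg adjustment over all 11167 tested genes and a threshold of 0.05; this scale understates differences of low genes. On simulated data the code recovered the size of the changes put in, but the share of false calls exceeded what the threshold allows, so calls and adjusted p-values here are on the lenient side. Groups and replicate numbers came from the titles. Single libraries were compared without a test, with a call at more than 2-fold. The members, the lists and the rule for named genes (the 3 most abundant genes of each list, a few fixed signalling genes and the 5 most like the members) were chosen with earlier results of these data known. Rnf5, Prkra, Ripk3, the genes named in small counts or at 0, and the ratios were added after their values were seen. One gene of the lists is not reported here. The alternatives were a pseudocount of 0.1, no filter, other eBayes settings, quantile normalization, median centring, a replicate block and leaving out each library.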

Additional observations from a re-analysis of the deposited data

How the results depend on the processing

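No member passed the threshold of limma under any alternative run. An unadjusted p under 0.05 in limma was reached by 1 of the 10 in the reported fit (14.9% of all tested genes) and by 2 with the replicate block (15.1%). The number of genes past the threshold, 6 as reported, was 0 under median centring, quantile normalization, eBayes without trend, no filter and a pseudocount of 0.1, 52 under robust eBayes and 2 with the replicate block. It ranged from 0 to 1034 when 1 library was left out (1034 without CD95ko 1, 194 without the library labelled CD95ko 2 and 0 without either control), which assumes that the lone library of its group varies like the others. List genes past the threshold, 0 as reported, numbered 1 under robust eBayes and from 0 to 9 with 1 library left out. The replicate numbers only number different lines and do not pair the libraries: deviations of same-numbered libraries correlated at -0.0814 across genes.

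The members' median difference between the groups ranged from -0.99 to 0.40 with 1 library left out. Between the controls their median, -1.12 as reported, was -1.18 with a pseudocount of 0.1, -0.65 under quantile normalization and -0.68 under median centring. Between the libraries labelled CD95ko it was -0.36, -0.23 and -0.24 in the same order, against -0.34 as reported. Of the single members' differences, 70 values with 4 libraries kept their direction and 6 with 1 library left out reversed. The eBayes settings, the lack of a filter and the replicate block cannot change these differences. Among the 70, only the values with a pseudocount of 0.1, quantile normalization or median centring could have moved. With 1 library left out, Ddx58 ranged from -1.60 to 0.011, Ifih1 from -0.91 to 0.13 and Eif2ak2 from -1.03 to 0.67, each positive only without control 1. Dhx58 ranged from -0.95 to 1.66 (negative without control 2 and, at -0.14, without the library labelled CD95ko 2) and Zbp1 from -0.51 to 1.92 (negative only without the library labelled CD95ko 2). The cause was not tested. Depth is unknown, so a gene listed at 0 may lie below the reach of a library.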
